A study of Homo sapiens with 12 samples.

Results

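The genes described here are 9 genes of homologous recombination (HR), of the linked Fanconi anemia pathway and of poly(ADP-ribose) signalling: BRCA1, BARD1, PALB2, BRCA2, RAD51C, XRCC2, FANCD2, BLM and PARP1. They were taken by name. All 9 were found among the 60669 gene IDs of the count table and all 9 were among the 18720 genes that passed the filter on low counts. Their mRNA was measured by RNA-seq in 12 libraries of established cell lines, which the study describes as ovarian cancer (OC) lines. The sensitive lines were HeyA8, SKOV3 and OV2008, and the resistant lines were HeyA8_MDR, SKOV3_TR and OV2008_C13, each of which was derived from the sensitive line of the same name, its parent, so that a pair forms an isogenic family. The study's text gives OV2008_C13 (C13) as resistant to cisplatin, SKOV3_TR to taxol and HeyA8_MDR to carboplatin, and the labels say only sensitive or resistant. Each line was grown in medium with buffer (vehicle) or with 8 µM quinacrine (QC, an antimalarial drug that binds DNA) for 6 h. Each combination of line and treatment gave 1 library. The 3 lines of a group are therefore its replicates, the resistant group being 3 separately selected lines, and a value for a single line has no replicate.

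HR repairs DNA double-strand breaks by copying an intact sister chromatid. BRCA1 and BARD1 form a heterodimer that favours the cutting back of DNA ends, PALB2 joins BRCA1 to BRCA2, BRCA2 prepares single-stranded DNA for the search for a matching strand, and RAD51C and XRCC2, which are paralogs, assist that step. FANCD2 is ubiquitinated at DNA crosslinks, the lesions that platinum drugs make, BLM is a helicase that undoes joined recombination intermediates, and PARP1 marks DNA breaks with ADP-ribose chains. Ovarian tumors that lack BRCA1 or BRCA2 are known to be sensitive to platinum and to PARP inhibitors.

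The median library had 22289428 counts in genes, and the range ran from 17782556 to 30585059. The lines did not share a lineage profile. PAX8, a Müllerian transcription factor, had levels between 234 and 480 CPM (read counts scaled to library size) in the HeyA8 and SKOV3 families. In the OV2008 family PAX8 lay between 7.56 and 24.8 CPM. Of the other Müllerian genes, SOX17 (at or under 0.0754 CPM) and MECOM (26.4 to 39.5 CPM) were also lowest in the OV2008 family. MSLN and MUC16 did not split this way. In vehicle MSLN had 16.9 CPM in OV2008_C13, 2.84 in HeyA8 and 13.1 in SKOV3. MUC16 had 2.35 CPM in OV2008 vehicle, 0.177 in HeyA8 vehicle and 10.9 in SKOV3 vehicle. TP63, a squamous factor, lay between 108 and 329 CPM in the OV2008 family and at or under 0.177 CPM in the others. The squamous keratin KRT5 was not confined to the OV2008 family, where it was at or over 2550 CPM. It had 49.4 CPM in SKOV3_TR vehicle (1672 counts) and 25.6 CPM with QC, against 0 counts in SKOV3 under both treatments. KRT6A had 60 counts in SKOV3_TR vehicle and 0 in SKOV3 vehicle, while KRT14 had at most 6 counts in SKOV3_TR. What made the SKOV3 pair differ in KRT5 was not tested. WT1 was at or under 4.79 CPM and the leukocyte genes PTPRC, CD3E and CD68 were at or under 0.66 CPM in all 12 libraries. CDH5, an endothelial gene, lay between 89.3 and 176 CPM in the HeyA8 family and at or under 14.0 CPM elsewhere. VWF, also endothelial, was at or under 5.29 CPM in all 12 libraries. As in any bulk sample, fewer cells of a type and less RNA per cell cannot be told apart.

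The QC library of HeyA8 stood apart from the other QC libraries. Among genes that differed at least 8-fold between the vehicle libraries of HeyA8 and HeyA8_MDR, it lay between them: at a median of 51.3% of the way to HeyA8_MDR over the 76 genes lower in HeyA8_MDR and 38.4% over the 32 genes higher there. In the other 5 lines these medians lay between -4.40% and 31.3% of the way to the partner line. Of the genes described here, BRCA2 lay 73.8% of the way, BLM 69.2%, BRCA1 64.8%, BARD1 60.2% and FANCD2 51.4%. The other 4 did not lie between these libraries: XRCC2 (106%) and PARP1 (118%) were lower with QC than in HeyA8_MDR, and PALB2 and RAD51C went away from it. The fits over all 6 lines and those in sensitive lines are therefore also given without HeyA8. What made this library differ was not tested.

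The 250 bases before the start site of a gene (RefSeq, GRCh38.p14) are shown for BRCA1 and BARD1, whose log2 levels had a Pearson r of 0.89 over the libraries. They are also shown for BRCA2, which had the largest difference between lines of a family. Those of RAD51C, the gene with the same direction of QC ratio in every line, and of PARP1, the most abundant, follow. Each is written 5′ to 3′ on the gene's strand, and capitals mark a GC box or an NF-Y box on either strand.
BRCA1 (chr17:43125365-43125614, minus strand): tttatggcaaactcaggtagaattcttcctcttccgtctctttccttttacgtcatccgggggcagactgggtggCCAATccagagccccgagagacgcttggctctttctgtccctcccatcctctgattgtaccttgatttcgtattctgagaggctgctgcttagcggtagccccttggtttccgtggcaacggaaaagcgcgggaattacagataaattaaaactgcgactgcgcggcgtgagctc
BARD1 (chr2:214809684-214809933, minus strand): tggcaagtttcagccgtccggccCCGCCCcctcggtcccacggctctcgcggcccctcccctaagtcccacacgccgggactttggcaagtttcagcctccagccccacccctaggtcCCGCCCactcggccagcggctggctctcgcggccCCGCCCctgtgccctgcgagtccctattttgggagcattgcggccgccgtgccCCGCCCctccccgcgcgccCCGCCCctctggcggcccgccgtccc
BRCA2 (chr13:32315258-32315507, plus strand): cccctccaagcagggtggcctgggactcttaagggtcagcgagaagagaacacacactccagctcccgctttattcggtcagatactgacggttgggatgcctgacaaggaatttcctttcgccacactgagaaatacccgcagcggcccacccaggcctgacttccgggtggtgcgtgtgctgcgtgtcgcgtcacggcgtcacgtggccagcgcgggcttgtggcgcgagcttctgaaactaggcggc
RAD51C (chr17:58692323-58692572, plus strand): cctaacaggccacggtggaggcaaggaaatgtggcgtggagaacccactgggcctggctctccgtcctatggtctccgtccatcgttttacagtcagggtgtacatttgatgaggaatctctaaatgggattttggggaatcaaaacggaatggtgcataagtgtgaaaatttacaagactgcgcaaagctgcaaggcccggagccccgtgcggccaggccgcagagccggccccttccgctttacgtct
PARP1 (chr1:226408094-226408343, minus strand): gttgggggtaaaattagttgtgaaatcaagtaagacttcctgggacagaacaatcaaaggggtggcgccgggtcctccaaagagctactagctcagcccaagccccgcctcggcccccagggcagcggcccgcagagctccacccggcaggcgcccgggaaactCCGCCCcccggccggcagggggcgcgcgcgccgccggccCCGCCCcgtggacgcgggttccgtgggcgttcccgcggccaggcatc

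The letters searched were GGGCGG for the GC box (the site of SP factors), CCAAT for the NF-Y box, TTTGAA for the CHR element of cell cycle genes and TTTCCCGC or TTTGGCGC for an E2F site, each on both strands, and overlapping GC boxes were each counted. The window of BARD1 held 5 GC boxes and that of PARP1 held 2, while the BRCA1 window shown held 1 NF-Y box, and no searched letters occurred in the windows of BRCA2, RAD51C and FANCD2. Windows with a GC box belonged to 5 of the 9 genes (BRCA1, BARD1, XRCC2, PARP1 and BLM, with a second start site of BRCA1 included) and those with an NF-Y box to 3 (BRCA1, PALB2 and BLM). The GC box of BRCA1 lies only in the window of that second start site (chr17:43170328-43170577), not in the window shown. These are counts of genes, some with more than 1 window, while the shares that follow count single windows. Among 35116 promoter windows of the same length, 42.6% held a GC box, 32.0% an NF-Y box, 13.3% a CHR element and 1.93% an E2F site of either form. Neither of the last 2 motifs was found in any of the 9 genes. These matches describe letters and not binding.

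Divided by the length of the canonical transcript, PARP1 had the highest level, with a median of 60.4 CPM per kb over the 12 libraries. FANCD2 followed with 11.4, RAD51C with 10.8, BRCA1 with 8.98 and PALB2 with 6.45 CPM per kb. BARD1 had a median of 3.11, XRCC2 of 1.68, BLM of 1.55 and BRCA2 of 1.34 CPM per kb. The 4 genes with the lowest levels per kb had the widest ranges. From the lowest to the highest of the 12 libraries, XRCC2 ranged 27.2-fold, BRCA2 25.6-fold, BARD1 13.4-fold, BLM 12.9-fold and BRCA1 9.78-fold, whereas FANCD2 ranged 4.82-fold, PARP1 4.18-fold, RAD51C 3.77-fold and PALB2 3.18-fold.

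**Figure D1:**
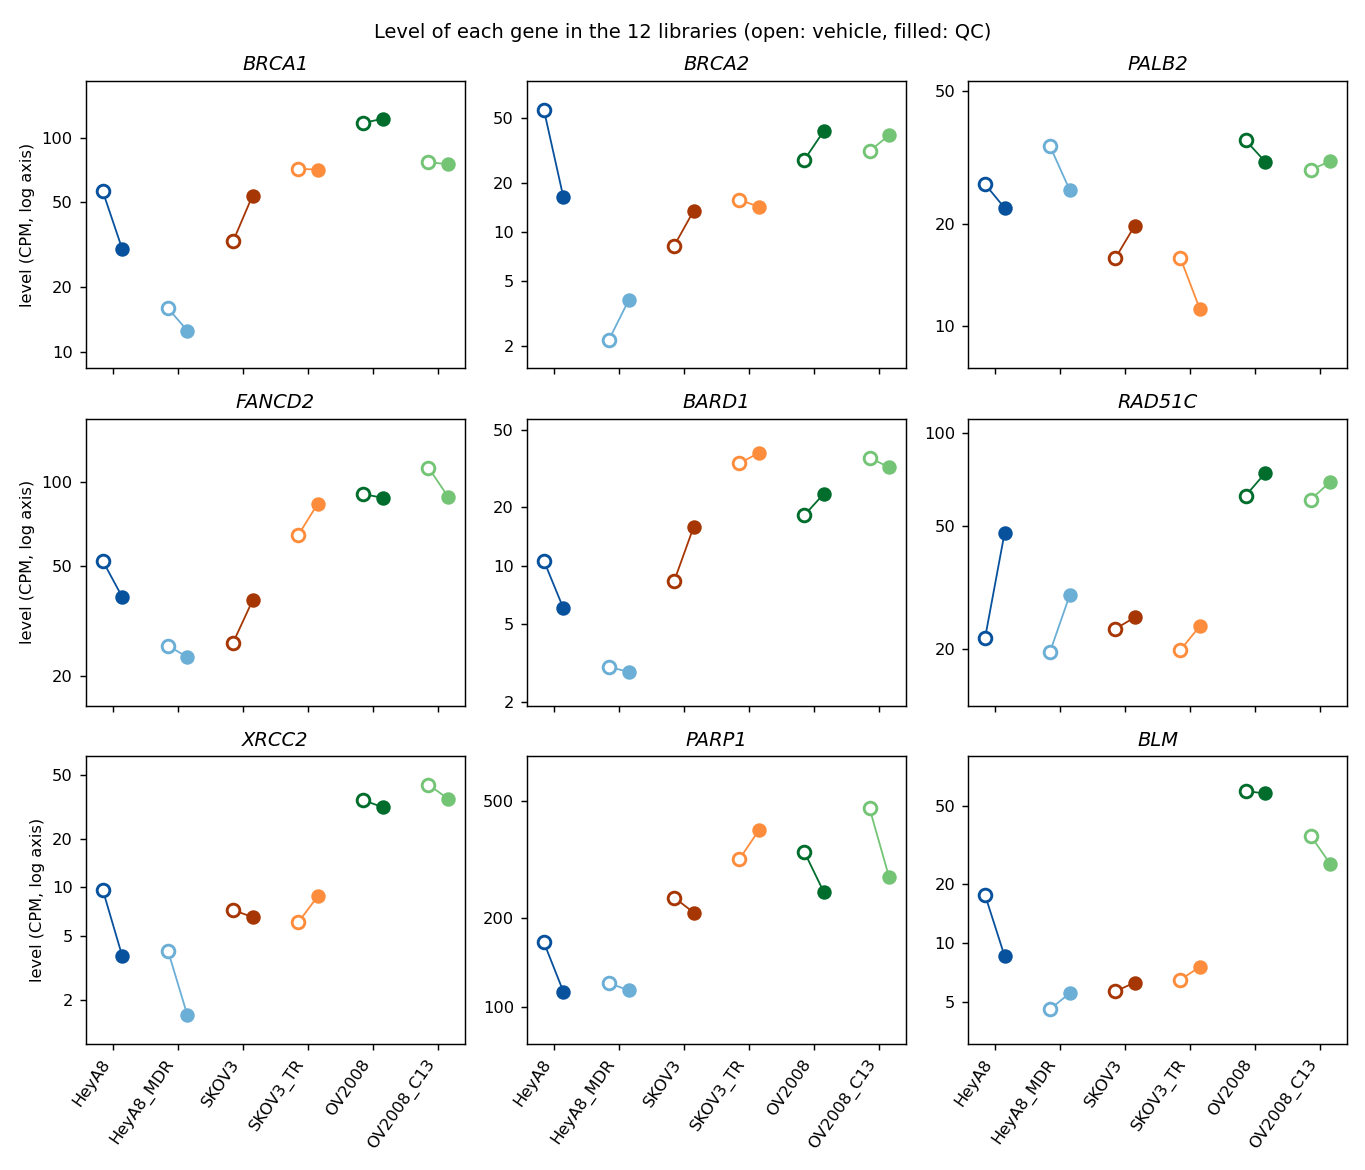
Level of each gene, in CPM on a log axis, in the 6 lines; open circles are vehicle and filled circles QC libraries, and a line joins the pair of 1 cell line. HeyA8_MDR had the lowest vehicle level of 8 of the 9 genes, all but PALB2, and BRCA2 was at 2.18 CPM in HeyA8_MDR and 55.8 CPM in HeyA8.

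The vehicle levels of BRCA1 were 56.2 CPM in HeyA8, 16.0 in HeyA8_MDR, 32.8 in SKOV3, 71.7 in SKOV3_TR, 117 in OV2008 and 77.1 in OV2008_C13. Its QC levels, in the same order of lines, were 30.2, 12.6, 53.8, 71.1, 123 and 75.2 CPM. BRCA1 was thus highest in OV2008 and lowest in HeyA8_MDR under both treatments, and the sensitive (68.8 ± 43.7 CPM, SD, n = 3) and resistant (54.9 ± 33.8 CPM, SD, n = 3) vehicle groups overlapped. BARD1, its partner, had vehicle levels of 10.6, 3.01, 8.32, 33.6, 18.2 and 35.9 CPM in that order, and QC levels of 6.03, 2.84, 15.8, 38.0, 23.5 and 32.1 CPM. In vehicle it was lowest in HeyA8_MDR and highest in OV2008_C13 and SKOV3_TR. BRCA1 shares 120 bases of exon with an unnamed gene on the same strand that had up to 703 counts, so reads in that stretch may have been divided or left out.

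BRCA2 was highest in HeyA8 vehicle, with 55.8 CPM, and lowest in HeyA8_MDR vehicle, with 2.18 CPM, from 1260 and 42 counts. The other vehicle levels were 8.20 CPM in SKOV3, 15.7 in SKOV3_TR, 27.6 in OV2008 and 31.2 in OV2008_C13. With QC the levels were 16.2 CPM in HeyA8, 3.79 in HeyA8_MDR, 13.4 in SKOV3, 14.2 in SKOV3_TR, 41.5 in OV2008 and 39.0 in OV2008_C13. The 2 libraries of HeyA8_MDR were thus the lowest of the 12. PALB2, which tethers BRCA2 to BRCA1, did not share this pattern: its levels lay between 11.2 CPM in SKOV3_TR with QC and 35.6 CPM in OV2008 vehicle, and HeyA8_MDR vehicle had 34.1 CPM, the second highest.

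RAD51C had vehicle levels of 21.7 CPM in HeyA8, 19.7 in HeyA8_MDR, 23.3 in SKOV3, 19.9 in SKOV3_TR, 62.7 in OV2008 and 61.0 in OV2008_C13. The corresponding QC levels were 47.5, 29.9, 25.4, 23.8, 74.2 and 69.5 CPM, each above its vehicle library, and the OV2008 family was above the other 4 lines under both treatments. XRCC2, the other paralog, followed the same families: its vehicle levels were 9.66, 4.05, 7.24, 6.06, 34.9 and 43.6 CPM, and its QC levels 3.73, 1.6, 6.54, 8.80, 31.5 and 35.6 CPM. Its lowest value rested on 27 counts. BLM was also highest in the OV2008 family, between 25.4 and 59.5 CPM, against 4.62 to 17.6 CPM elsewhere.

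FANCD2 lay between 23.5 CPM in HeyA8_MDR with QC and 113 CPM in OV2008_C13 vehicle. PARP1 had vehicle levels of 166 CPM in HeyA8, 121 in HeyA8_MDR, 235 in SKOV3, 317 in SKOV3_TR, 335 in OV2008 and 472 in OV2008_C13, and QC levels of 113, 114, 209, 398, 245 and 276 CPM. PARP1 was lowest in the HeyA8 family under both treatments and FANCD2 was lowest in HeyA8_MDR, and for neither gene were the sensitive and resistant groups apart.

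The first comparison asks whether resistant lines differ from their parents in HR gene expression without drug. HeyA8_MDR had lower levels than HeyA8 of 8 of the 9 genes, with a median log2 ratio of -1.24, whereas SKOV3_TR had higher levels than SKOV3 of 7 of the 9, with a median of 0.43, and OV2008_C13 had higher levels than OV2008 of 5 of the 9, with a median of 0.18. The medians over all 18720 genes were 0.00, 0.00040 and 0.03 in these families.

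In the HeyA8 family BRCA2 had the lowest ratio, at -4.62 on the log2 scale; in plain CPM it was 25.6-fold lower in HeyA8_MDR (95% exact interval 18.8 to 35.7, from the counts alone). Only 48 of 18720 genes had a log2 ratio this low or lower. BLM had a log2 ratio of -1.91, BRCA1 of -1.81, BARD1 of -1.79, XRCC2 of -1.24 and FANCD2 of -1.01. These 6 genes were at or under -1, as were 14.6% of all genes, and BRCA2 alone was at or under -2, as were 3.64%. PARP1 had a ratio of -0.46, RAD51C of -0.14 and PALB2 of 0.37. The HeyA8_MDR vehicle levels of BARD1, XRCC2 and BLM rested on 58, 78 and 89 counts. With QC the ratio of BRCA2 was -2.07, from 444 counts in HeyA8 and 64 in HeyA8_MDR, and that of BRCA1 was -1.26. Transcript length moved with this pair: genes with transcripts of 1000 bases or less had a median log2 ratio of 0.27 and those of 11000 to 14000 bases, which include BRCA2 with 11954, a median of -0.44. The part of length in the ratio of BRCA2 was not tested.

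The SKOV3 family went the other way for the BRCA1 complex. BARD1 had a log2 ratio of 2.0 (4.03-fold, 95% exact interval 3.47 to 4.71, from the counts alone), FANCD2 of 1.28 and BRCA1 of 1.12, and these 3 genes were at or over 1, as were 19.5% of all genes. BRCA2 had a ratio of 0.93 and PARP1 of 0.43. The summed picture of proliferation genes moved in the same direction: the median of 27 S and G2 phase genes was 1.22 here, against -0.45 in the HeyA8 family and 0.20 in the OV2008 family. Whether cell cycle state has a part in the ratios of the HR genes was not tested. In the OV2008 family the largest ratios were 0.98 for BARD1, -0.75 for BLM and -0.61 for BRCA1, and 0 of the 9 genes reached 1 in either direction, as against 11.6% of all genes at or over 1 and 9.67% at or under -1.

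**Figure D2:**
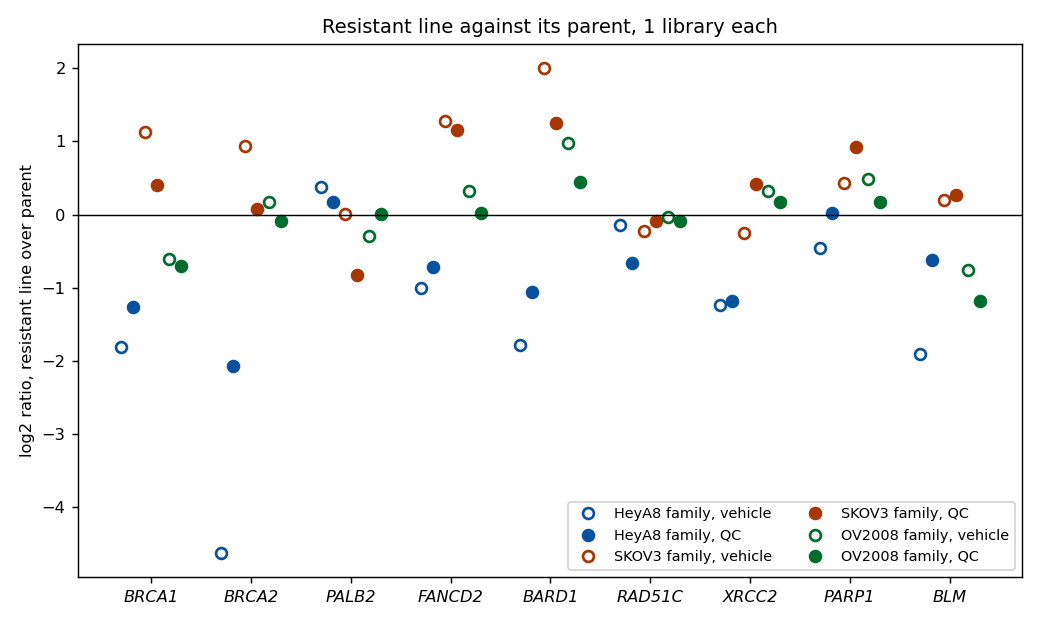
Log2 ratio of the resistant line over its parent for each gene, 1 library each, with open circles for vehicle and filled circles for QC libraries and a colour for each family. BRCA2 in the HeyA8 family stands lowest at -4.62 in vehicle and -2.07 with QC, and RAD51C stays between -0.67 and -0.04 in all 6 comparisons.

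Across the 3 families no gene described here passed a test. With edgeR's quasi-likelihood test on the 6 vehicle libraries, with a term for each family, 0 of the 9 genes had an unadjusted p under 0.05, against 3.77% of the 16091 genes tested, and the smallest Benjamini-Hochberg adjusted p among them was 0.975. BLM had a fitted log2 difference of -0.82 (SE 0.51) and BRCA2 of -0.80 (SE 1.25), where the error shows how far the families lay apart. In the same test 0 genes of all passed an adjusted p of 0.05 and 606 an unadjusted one, and DESeq2 called 41 genes after adjustment. These fits of the 6 vehicle libraries had 2 residual degrees of freedom, and the fits without a family, given below, had fewer. RAD51C was the only gene of the 9 with the same sign in 3 of 3 families, lower by 0.14, 0.23 and 0.04 on the log2 scale, and 11.5% of all genes were lower in 3 of 3. Without the HeyA8 family, BARD1 had a fitted difference of 1.5 (edgeR, unadjusted p = 0.0335, adjusted p = 0.999), and without the SKOV3 family BRCA1 (-1.19, unadjusted p = 0.0275) and BLM (-1.32, unadjusted p = 0.0343) passed the unadjusted level, with adjusted p = 1.0 for each by edgeR. Of all genes tested, 605 of 17437 passed the unadjusted level without the HeyA8 family and 572 of 16335 without the SKOV3 family.

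The second comparison asks what 6 h of QC does to these mRNAs. RAD51C was higher with QC in 6 of 6 lines, and no other gene described here had the same sign in all of them. Its QC over vehicle log2 ratios were 1.13 in HeyA8, 0.60 in HeyA8_MDR, 0.12 in SKOV3, 0.26 in SKOV3_TR, 0.24 in OV2008 and 0.19 in OV2008_C13. The ratios were thus largest in the HeyA8 family and within 0.12 to 0.26 in the other 4 lines. In SKOV3 it rested on 559 counts with QC and 557 in vehicle, a CPM ratio of 1.09 with an exact interval of 0.967 to 1.23 that includes no difference. The fitted difference over all 6 lines was 0.42 (SE 0.15, edgeR with a term for each line, unadjusted p = 0.0139), and it did not pass after adjustment over 18720 genes (adjusted p = 0.214). An unadjusted p under 0.05 with a higher level was found for 7.99% of all genes, and 4.12% of all genes were higher in 6 of 6 lines. The two-sided exact sign-flip test over the 6 line ratios gave p = 0.0313, the smallest it can give. Any gene with the same sign in 6 of 6 lines gives this p, so it only restates the count of signs. A further 4.6% of all genes were lower in 6 of 6 lines and reach it too. The lines are also pairs of related lines, which this test ignores. Without HeyA8 the difference was 0.28 (SE 0.13, edgeR, unadjusted p = 0.0527, adjusted p = 0.421).

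PARP1 was lower with QC in 5 of 6 lines, as were 16.3% of all genes in at least 5 lines. The log2 ratios were -0.77 in OV2008_C13, -0.56 in HeyA8, -0.45 in OV2008, -0.17 in SKOV3, -0.08 in HeyA8_MDR and 0.33 in SKOV3_TR. The CPM level of OV2008_C13 went from 472 to 276, while that of SKOV3_TR went from 317 to 398. The fitted difference was -0.29 (SE 0.14, edgeR, unadjusted p = 0.0712, adjusted p = 0.369), and it passed the unadjusted level only without SKOV3_TR among the lines left out (-0.41, edgeR, unadjusted p = 0.0117, adjusted p = 0.216). Without HeyA8 it was -0.23 (edgeR, unadjusted p = 0.171, adjusted p = 0.606), and without the other lines it lay between -0.34 and -0.20, the latter without OV2008_C13. Of all genes tested without SKOV3_TR, 2852 of 19307 passed the unadjusted level.

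XRCC2 was also lower in 5 of 6 lines, with log2 ratios of -1.35 in HeyA8 and -1.30 in HeyA8_MDR, between -0.29 and -0.14 in SKOV3 and the OV2008 family, and 0.53 in SKOV3_TR. These HeyA8 family values rest on 218 and 102 counts in HeyA8 and 78 and 27 in HeyA8_MDR. The fitted difference was -0.41 (SE 0.23, edgeR, adjusted p = 0.427), and without SKOV3_TR it was -0.60 (edgeR, unadjusted p = 0.0207, adjusted p = 0.257). Without HeyA8 it was -0.22 (edgeR, unadjusted p = 0.337, adjusted p = 0.744), and without HeyA8_MDR it was -0.28 (edgeR, unadjusted p = 0.233, adjusted p = 0.693). The paralogs RAD51C and XRCC2 thus had ratios of opposite sign in 5 of 6 lines, and the exception was SKOV3_TR, where both were higher.

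The BRCA genes had no common direction. BRCA2 was higher with QC in HeyA8_MDR (0.77), SKOV3 (0.71), OV2008 (0.59) and OV2008_C13 (0.32), lower in SKOV3_TR (-0.14) and far lower in HeyA8 (-1.78), where 3.44-fold less was counted (95% exact interval 3.09 to 3.84). Only 214 of 18720 genes had a QC ratio this low or lower in HeyA8. Genes with transcripts of 11000 to 14000 bases, BRCA2 among them, had median QC ratios of 0.28 in OV2008_C13 and 0.14 in OV2008. Their medians were -0.21 in HeyA8, -0.15 in HeyA8_MDR, -0.04 in SKOV3 and -0.08 in SKOV3_TR. The part of length in the QC ratios of BRCA2 was not tested. The fitted difference of BRCA2 over 6 lines was 0.07 (SE 0.29, edgeR, adjusted p = 0.931), and without HeyA8 it was 0.43 (SE 0.17, edgeR, unadjusted p = 0.0269, adjusted p = 0.347). Of all genes tested without HeyA8, 2393 of 19890 had an unadjusted p under 0.05. BRCA1 was lower by 0.90 in HeyA8 and higher by 0.71 in SKOV3 on the log2 scale, with the other 4 lines between -0.35 and 0.07. BARD1 followed it, with -0.80 in HeyA8 and 0.92 in SKOV3. FANCD2 had ratios between -0.43 and 0.51, PALB2 between -0.50 and 0.32 and BLM between -1.03 and 0.26, and their fitted differences were -0.01, -0.16 and -0.17 (SE 0.14, 0.14 and 0.18, all with adjusted p at or over 0.628 by edgeR). Those of BRCA1 and BARD1 were -0.08 and 0.08 (SE 0.17 and 0.20). Without HeyA8 the differences were 0.08 for BRCA1, 0.25 for BARD1, 0.07 for FANCD2, -0.15 for PALB2 and 0.0057 for BLM, with adjusted p at or over 0.618 by edgeR.

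**Figure D3:**
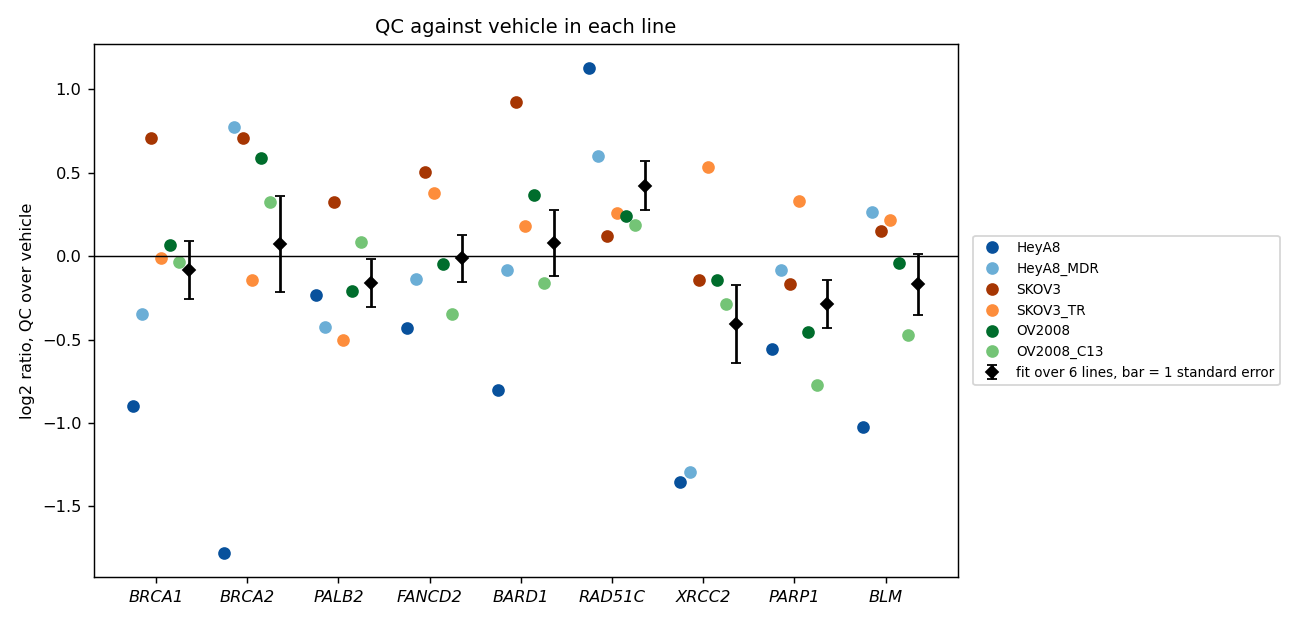
Log2 ratio of QC over vehicle for each gene, with a coloured point for each of the 6 lines and a black diamond for the fitted difference over all lines with 1 standard error. All 6 points of RAD51C lie above 0, and HeyA8 has the lowest point of BRCA1, BRCA2, FANCD2, BARD1, XRCC2 and BLM.

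By line, the median ratio of the 9 genes was -0.80 in HeyA8, -0.08 in HeyA8_MDR, 0.32 in SKOV3, 0.21 in SKOV3_TR, -0.04 in OV2008 and -0.16 in OV2008_C13, while the medians over all genes lay between -0.0047 and 0.00. Lower levels were seen for 8 of the 9 genes in HeyA8 and higher levels for 7 of the 9 in SKOV3. In HeyA8, 3 genes (BRCA2, XRCC2 and BLM) had a ratio at or under -1, as did 6.95% of all genes, and RAD51C had a ratio over 1, as did 10.2%. In HeyA8_MDR XRCC2 was at or under -1, as were 9.49% of all genes. In the other 4 lines the lowest ratio was -0.77, for PARP1 in OV2008_C13, where 1312 of 18720 genes had that ratio or a lower one. The highest there was 0.92, for BARD1 in SKOV3, where 17854 of 18720 genes had that ratio or a lower one. In edgeR's test over all 6 lines 1 of the 9 genes, RAD51C, had an unadjusted p under 0.05, against 15.2% of all genes. After adjustment 0 genes of all passed (0.0%), while 2840 passed the unadjusted level, and DESeq2 called 518 genes after adjustment, with RAD51C at adjusted p = 0.115.

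Sensitive and resistant lines were then compared. In the sensitive lines RAD51C had a fitted QC difference of 0.50 (SE 0.22, edgeR, unadjusted p = 0.0464, adjusted p = 0.743) and was the single gene of the 9 at an unadjusted p under 0.05, against 6.59% of all genes. In the resistant lines 0 of the 9 genes passed that level, against 6.03%, and RAD51C had a difference of 0.35 (SE 0.22). The difference between the groups was itself tested and was -0.15 for RAD51C (SE 0.31, edgeR, adjusted p = 1.0). For the other genes this resistant minus sensitive difference lay between -0.24 for PALB2 (SE 0.30) and 0.42 for BRCA2 (SE 0.59), and 0 of the 9 passed the unadjusted level, against 1.16% of all genes. Without HeyA8, in the sensitive lines BRCA2 (0.65, unadjusted p = 0.0406) and BARD1 (0.64, unadjusted p = 0.0348) passed the unadjusted level by edgeR, each with adjusted p = 1.0, while RAD51C no longer did (0.18, SE 0.23, unadjusted p = 0.452, adjusted p = 1.0). XRCC2 and PARP1 then had -0.15 (SE 0.35) and -0.31 (SE 0.27), BRCA1 0.38 (SE 0.24), FANCD2 0.23 (SE 0.25), PALB2 0.05 (SE 0.27) and BLM 0.05 (SE 0.28). In this fit without HeyA8, 808 of 19890 genes passed the unadjusted level in the sensitive lines.

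The other genes of these pathways were counted from lists written from general knowledge, and each gene of every list was tested. Among 41 other HR genes, 1 was higher and 3 were lower with QC at an unadjusted p under 0.05, where 7.99% of all genes were higher and 7.18% lower, and the list's median fitted difference was -0.10. RAD51D, a paralog in the same complexes as XRCC2, had a difference of -0.71 (SE 0.22, edgeR, adjusted p = 0.189), lower in 5 of 6 lines, and DNA2, a nuclease that cuts back DNA ends, one of -0.42 (SE 0.17, adjusted p = 0.268).

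Among 22 other Fanconi anemia genes 2 were higher and 4 lower, with a median of -0.17. FANCL, the ligase subunit that ubiquitinates FANCD2, had a difference of -0.51 (SE 0.15, edgeR, adjusted p = 0.175), and FANCA, of the same core complex, -0.43 (SE 0.13, adjusted p = 0.189). Both were lower in 6 of 6 lines, as were 4.6% of all genes. Among 19 PARP and single-strand break repair genes 0 were higher and 4 lower, with a median of 0.01. CHD1L, a chromatin remodeler that ADP-ribose chains recruit, had -0.74 (SE 0.22) and was lower in 6 of 6 lines. Among 16 end joining genes 1 was higher and 2 lower, with a median of -0.06: XRCC4, the partner of DNA ligase IV, had 0.76 (SE 0.19) and was higher in 6 of 6 lines, and the polymerase POLM had -0.68 (SE 0.16) and was lower in 6 of 6. Among 27 S and G2 phase genes 3 were higher and 1 lower, with a median of -0.04. CDT1, an origin licensing factor, had -0.62 (SE 0.13, lower in 6 of 6) and TOP2A, a topoisomerase, 0.64 (SE 0.23, higher in 5 of 6). No gene of these lists passed adjustment over all genes by edgeR, and the smallest adjusted p among them was 0.141, for CDT1.

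For resistant lines against parents, the same lists gave 1 higher and 2 lower of the 41 HR genes, 0 of the 22 Fanconi genes, 1 higher of the 19 PARP and single-strand break genes, 1 lower of the 16 end joining genes and 5 higher of the 27 S and G2 phase genes at an unadjusted p under 0.05, where 1.9% of all genes were higher and 1.87% lower. The list medians were 0.11, 0.01, 0.21, -0.39 and 0.35, against 0.01 over all genes. RBBP8 (CtIP), which starts the cutting back of DNA ends, had a fitted difference of -2.03 (SE 0.54), and its vehicle levels were 60.0 CPM in HeyA8 and 30.1 in HeyA8_MDR, 337 in SKOV3 and 29.7 in SKOV3_TR, and 98.0 in OV2008 and 30.7 in OV2008_C13. In vehicle the 3 resistant lines thus had nearly equal levels below 3 unequal parents. With QC the level of RBBP8 was 61.25 CPM in HeyA8_MDR, above the 52.4 CPM of HeyA8. SKOV3_TR (39.3 CPM) and OV2008_C13 (33.7 CPM) stayed below their parents (338 and 86.5 CPM). SEM1, a small protein bound to BRCA2, had 0.99 (SE 0.33) and was higher in 3 of 3 families.

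RIF1, which holds back the cutting of DNA ends, had -1.45 (SE 0.58), with 95.4 CPM in HeyA8 and 10.9 CPM in HeyA8_MDR, and was lower in 3 of 3 families. XRCC6 (Ku70), which binds DNA ends, had 0.51 (SE 0.25, unadjusted p = 0.0849 by edgeR). In the S and G2 list TYMS, which makes thymidylate, had 1.02 (SE 0.31) and CDT1 1.38 (SE 0.43), both higher in 3 of 3 families, as were 13.1% of all genes. MACROD2, which removes ADP-ribose, had 1.73 (SE 0.45), but its levels were at or under 1.40 CPM in all libraries outside the SKOV3 family and were 53.1 CPM in SKOV3 and 154 CPM in SKOV3_TR. The remaining genes named by the rule, WDR48 (-0.74), FANCG (0.57) and XRCC1 (0.47), did not pass the unadjusted level. All of these genes had adjusted p = 0.975 by edgeR.

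**Figure D4:**
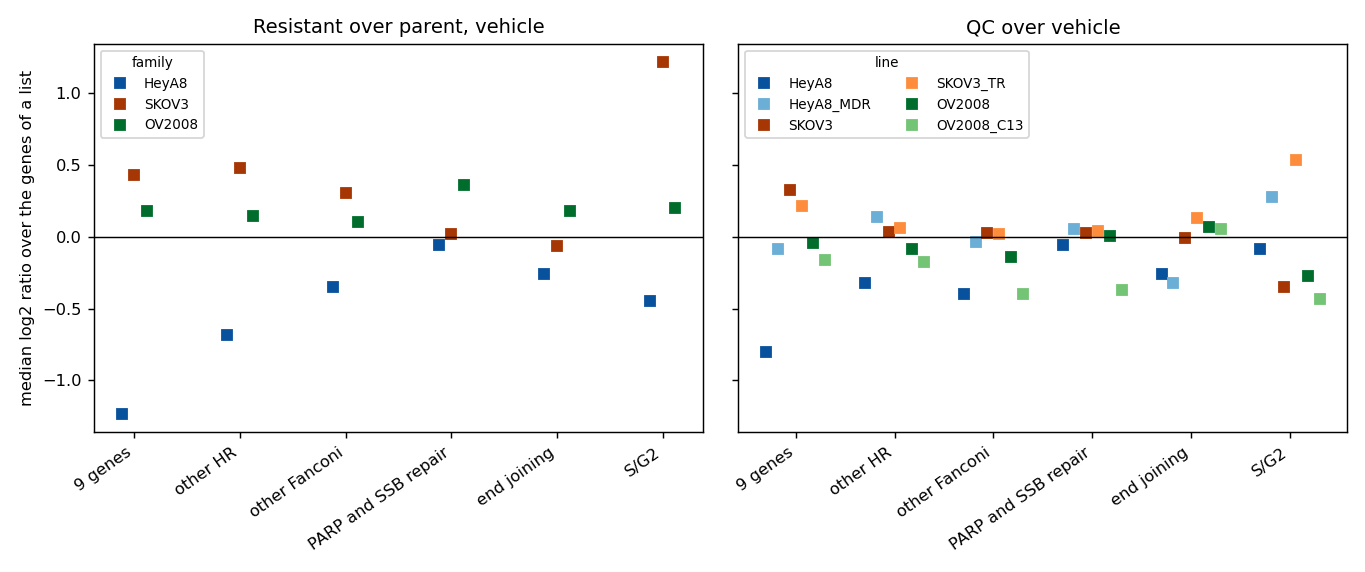
Median log2 ratio over the genes of each list, for resistant over parent in vehicle in the 3 families and for QC over vehicle in the 6 lines. The 9 genes have medians of -1.24, 0.43 and 0.18 in the families, and the S and G2 phase list has 1.22 in the SKOV3 family.

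Beside the lists, the 9 genes were compared by family in the vehicle libraries. The other HR genes had median ratios of -0.68 in the HeyA8 family, 0.48 in the SKOV3 family and 0.15 in the OV2008 family, in the same order of sign as the 9 genes, with 12, 27 and 24 of the 41 genes above 0. The other Fanconi genes had medians of -0.35, 0.31 and 0.10 in these families. PARP and single-strand break genes had medians of -0.06, 0.02 and 0.36. In HeyA8 with QC the medians were -0.32 for the other HR genes, -0.40 for the other Fanconi genes and -0.09 for the S and G2 phase genes, against -0.80 for the 9 genes. With QC the S and G2 phase median had the opposite sign to that of the 9 genes in SKOV3 (-0.35 against 0.32) and HeyA8_MDR (0.27 against -0.08). In SKOV3_TR, OV2008 and OV2008_C13 these medians had the same sign.

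Over the 12 libraries, which are 6 lines measured under both treatments and so share their lines, the log2 levels of the 9 genes were correlated pairwise between a Pearson r of -0.25 (PALB2 and BARD1) and 0.91 (BARD1 and PARP1). BRCA1 had r = 0.90 with FANCD2, 0.89 with BARD1 and 0.84 with BRCA2. PALB2 stood apart, with r = 0.02 against BRCA1 and 0.15 against BRCA2, its binding partners. Among the genes whose log2 level was most like the mean of the 9 were EMSLR (r = 0.968), an unnamed gene (0.966), SNRNP40 (0.963) and SLF1 (0.963). For single genes the closest were VPS35L for BRCA1 (0.972), CKAP2L for BRCA2 (0.952), NOP2 for PALB2 (0.968), ATP6V1F for FANCD2 (0.982), TMUB1 for BARD1 (0.961), NHLH2 for RAD51C (0.963), RYR2 for XRCC2 (0.980), NAXE for PARP1 (0.983) and MCRS1 for BLM (0.978). These values describe these libraries only.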

How the data were processed

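The deposited table holds raw read counts per Ensembl gene ID for 12 libraries (TruSeq RNA kit, polyA RNA). According to the study's methods the authors used TopHat and the hg19 build for alignment and HTSeq for counting, whereas the submitters' processing notes list STAR 2.7.3a, HTSeq 0.6.1p1 and GRCh38.p13; the annotation and strand setting are not given in the sources used here. Without a strand setting, overlapping genes are uncertain. Symbols were paired with 58620 of the 60669 IDs, which hold 99.87% of the counts, and all 9 genes were matched.

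Counts were analysed with edgeR 4.0.16 in R 4.3.3 (quasi-likelihood test, TMM scaling, two-sided, Benjamini-Hochberg adjustment over all genes tested, level 0.05). Genes were kept by filterByExpr (minimum count 10, minimum total 15). Levels are CPM on TMM-scaled library sizes, and log2 ratios per line have a prior count of 2. Standard errors were taken from the fitted difference and its F statistic. QC fits used all 12 libraries with a term per cell line, since both libraries of a line come from the same cells: their deviations from the group means had correlations between 0.893 and 0.929. Resistant lines were compared with parents in the 6 vehicle libraries with a term per family, where the deviations had correlations between 0.695 and 0.763. Nothing in the labels says that libraries came from separate cultures, so p-values measure the spread between lines. Ratios of 2 libraries have 95% exact conditional binomial intervals, which cover counting error only. Lengths are those of GENCODE canonical transcripts, known for 98.76% of the genes tested. Gene lists were written from general knowledge. The named genes are the 9 genes, the 2 genes with the smallest p of each list for QC and for resistance, and the genes with the highest correlation to the 9, of which the report gives the first for single genes. A few genes under this rule are left out of the report. The 9 genes and the lists were chosen with earlier results of these data known. The fits were tested on simulated data. Alternatives were a fit without the block, DESeq2 1.42.0, scaling by its size factors, scaling by library totals alone, other filters, and leaving out each line or family.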

Additional observations from a re-analysis of the deposited data

Results flagged for a closer look

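The log2 ratio of QC over vehicle of BRCA2 in HeyA8 was -1.78, while the other 5 lines lay between -0.14 and 0.77. Its gap to the nearest line, divided by the range of the 6 lines, was 0.640, above Dixon's 95% critical value of 0.625. Of the 9 genes it was the single case, and chance flags about 1 in 20 such groups. The same library lay 73.8% of the way from HeyA8 vehicle to HeyA8_MDR vehicle for BRCA2, and the part of this in the ratio was not tested.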

How the results depend on the processing

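The depth behind BRCA2, BARD1 and XRCC2 in HeyA8_MDR was at most 78 counts and that behind BLM at most 94. With 1 library per line and treatment no line value has a replicate. Over all comparisons except the group difference, 369 values of single genes were recomputed under other settings; 335 kept their sign and their side of an adjusted p of 0.05, 34 changed sign, and 0 came past or lost that level. Each sign change therefore had to start from a fitted difference that had not passed the test, and the cause was not tested.

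Without the replicate block for the cell line, the pairing being ignored, 0 of the 9 genes passed the unadjusted level over all 6 lines and 0 in the sensitive lines, and the genes of all at that level numbered 88 over all lines, 30 in sensitive lines, 23 in resistant lines, 6 for the difference between groups and 104 for resistant against parent. BRCA2 over all lines then had -0.074, BRCA1 0.0021 and FANCD2 -0.045 in sensitive lines, BARD1 0.0079 in resistant lines and XRCC2 0.029 for resistant against parent. DESeq2 called 0 of the 9 genes in sensitive lines at the unadjusted level, as did its size factors in edgeR (0), gave FANCD2 -0.0064 there (-0.0066 with its size factors), called 518, 31, 1 and 41 genes after adjustment over all lines, in sensitive lines, for the difference and for resistant against parent, and 1058 at the unadjusted level for the last. In sensitive lines 1156 of 18720 genes were at the unadjusted level with DESeq2 and 1237 with its size factors in edgeR. With library size in place of TMM 2 of the 9 genes, RAD51C and PARP1, passed the unadjusted level over all lines, against 2707 of 18720 genes. Without a filter 3 of the 9 did (RAD51C, XRCC2 and PARP1), against 3638 of 39590 genes. Without a filter 791, 195, 35, 5 and 146 genes passed after adjustment over all lines, in sensitive lines, in resistant lines, for the difference and for resistant against parent, and 1918 (sensitive), 501 (difference) and 1583 (resistant against parent) at the unadjusted level. With at least 10 counts in every library 120 genes did so for the difference. In the QC libraries PALB2 had -0.20 for resistant against parent.

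Leaving out each line in turn gave between 1 and 3 of the 9 genes over all lines and between 1 and 2 in sensitive lines at the unadjusted level, and leaving out each family gave between 0 and 2 for resistant against parent. Among all genes tested, 19307 to 20213 without a line, those at that level ranged from 2033 to 3103 over all lines. They ranged from 808 to 2012 in sensitive lines, from 416 to 1376 in resistant lines and from 187 to 540 for the difference. Without a family 16335 to 17437 genes were tested, and 572 to 705 were at that level for resistant against parent. The genes passing after adjustment without a line ranged from 0 to 1 over all lines and from 2 to 18 in sensitive lines. In sensitive lines the count was 808 without HeyA8, 2012 without SKOV3 and 813 without OV2008, and in resistant lines it was 416 without HeyA8_MDR. Over all lines BRCA1 ranged from -0.25 to 0.081, BRCA2 from -0.070 to 0.43, FANCD2 from -0.12 to 0.070, BARD1 from -0.10 to 0.25 and BLM from -0.26 to 0.0057. In sensitive lines BRCA1 ranged from -0.43 to 0.38, BRCA2 from -0.61 to 0.65, PALB2 from -0.24 to 0.051, FANCD2 from -0.25 to 0.23, BARD1 from -0.22 to 0.64 and BLM from -0.54 to 0.045. In resistant lines FANCD2 ranged from -0.23 to 0.11, BARD1 from -0.11 to 0.049, XRCC2 from -0.71 to 0.091, PARP1 from -0.41 to 0.11 and BLM from -0.16 to 0.23. For resistant against parent BRCA1 ranged from -1.19 to 0.26, BRCA2 from -2.17 to 0.56, PALB2 from -0.14 to 0.23, FANCD2 from -0.33 to 0.80, BARD1 from -0.37 to 1.5 and XRCC2 from -0.72 to 0.038. RAD51C over all lines stayed between 0.28 and 0.47.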
